A study of Mus musculus with 8 samples.

Results

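The genes described here are 10 tubulin genes, 7 that encode alpha-tubulin (*Tuba1a*, *Tuba1b*, *Tuba1c*, *Tuba3a*, *Tuba3b*, *Tuba4a* and *Tuba8*) and 3 that encode beta-tubulin (*Tubb3*, *Tubb5* and *Tubb6*). They were chosen by gene symbol as members of the tubulin family, by a rule that holds no measured value. Earlier results of these data were known when the choice was made. Each is 1 of the 23343 genes, and 1 row of the 26099 rows, in the RNA tables. The series holds 8 libraries from the testis of adult C57BL/6 mice. RNA was sequenced from pachytene spermatocytes (PS), the cells in the long prophase of the first meiotic division, and from round spermatids (RS), the haploid cells that follow, with 2 replicates of each stage. All 4 RNA libraries came from *Rnf8;Scml2*-dKO mice, which lack the ubiquitin ligase RNF8 and the germline Polycomb protein SCML2, so the stages were compared within the double knockout. H3K27ac, a histone mark of active promoters and enhancers, was mapped at the same stages in wild-type mice, again with 2 replicates of each stage. The RNA and the H3K27ac values therefore differ in genotype as well as in assay, and no wild-type RNA library was analysed here.

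Microtubules are built from dimers of 1 alpha-tubulin and 1 beta-tubulin. Each kind is encoded by a small family of genes whose products, called isotypes, are nearly identical except for short tails that carry most of the modifications. Microtubules form the meiotic spindle in spermatocytes. In spermatids they form the manchette, a skirt around the nucleus that helps to shape the sperm head, and the axoneme of the tail. *Tuba3a* and *Tuba3b* are known as the testis alpha-tubulin genes and encode the same protein.

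The RNA tables held between 9655405 and 12289694 reads on genes per library. The purity of the stages was read from marker genes. By the edgeR test described below, 30.4% of all 14647 genes tested were higher in RS and 27.6% were lower. These shares are the background for the marker counts. Of 10 RS markers 9 were higher in RS, and their summed level was 605 and 974 RPKM (reads per kilobase of transcript, scaled to the mapped reads of the library) in the PS libraries and 13757 and 14466 RPKM in the RS libraries. Of 10 PS markers 4 were lower in RS and 1 was higher, with summed levels of 883 and 767 RPKM in PS and 607 and 628 RPKM in RS. Among markers of other cells, the summed levels of 10 spermatogonia markers (70.7 and 50.1 RPKM in PS, 60.3 and 56.4 RPKM in RS) and 10 Sertoli cell markers (74.2 and 34.9 RPKM in PS, 44.1 and 26.7 RPKM in RS) overlapped between the stages, and those of 3 other lists did not. Gene by gene, 3 spermatogonia markers were higher in RS and 1 was lower. The lower one, *Id4*, held a large part of the PS sum (26.1 and 20.4 RPKM in PS, 2.73 and 2.53 RPKM in RS). Of 7 Sertoli cell markers tested, 2 were higher and 0 were lower. For the spermatogonia and Sertoli cell lists these counts lay near or below the shares of all genes. The summed level of 7 Leydig cell markers was 785 and 568 RPKM in PS and 72.1 and 45.2 RPKM in RS. That of 7 macrophage and blood markers was 3.08 and 2.23 RPKM in PS and 42.7 and 36.7 RPKM in RS, with the hemoglobin genes *Hbb-b1* and *Hba-a1* at 0 reads in every library. That of 10 peritubular and vascular markers was 8.75 and 6.89 RPKM in PS and 24.7 and 19.4 RPKM in RS. Of these 10, 5 were higher in RS, which were the collagens *Col1a1*, *Col1a2* and *Col3a1*, the endothelial *Vwf*, and *Cnn1*. The endothelial *Pecam1* was lower, and *Acta2*, *Myh11*, *Des* and *Cdh5* did not pass the test. Their part in the tubulin values was not tested. In bulk samples, fewer cells of a type and less RNA per cell cannot be told apart. *Rnf8* held 93, 110, 61 and 50 reads and *Scml2* 40, 92, 44 and 98 reads in PS replicates 1 and 2 and RS replicates 1 and 2, and with no wild-type RNA library here the deletions could not be checked by these counts.

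The promoters of 4 genes are shown because these genes carried the largest summed level or the clearest paired change in RNA and H3K27ac. The sequences are from RefSeq (build GRCm38.p6), run from 250 bases before the start site to 50 bases from it, 5′ to 3′ on the strand of the gene, and matched 9 of the 10 tubulin genes. Capitals mark the motifs found among 7 searched on both strands. These were the cAMP response element TGACGTCA, its core TGACG, which lies within it, the E-box CACGTG, the CCAAT box CCAAT, the TATA box TATAAA, the GC box GGGCGG, and the X-box core GTTGCC.
Tuba3a (chr6:125286032-125286331, minus strand): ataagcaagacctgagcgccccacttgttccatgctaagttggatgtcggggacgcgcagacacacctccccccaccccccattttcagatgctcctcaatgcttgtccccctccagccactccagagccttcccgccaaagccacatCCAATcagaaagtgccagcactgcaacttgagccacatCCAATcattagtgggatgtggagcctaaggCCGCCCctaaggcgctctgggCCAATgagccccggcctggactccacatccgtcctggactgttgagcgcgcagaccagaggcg
Tuba3b (chr6:145615713-145616012, plus strand): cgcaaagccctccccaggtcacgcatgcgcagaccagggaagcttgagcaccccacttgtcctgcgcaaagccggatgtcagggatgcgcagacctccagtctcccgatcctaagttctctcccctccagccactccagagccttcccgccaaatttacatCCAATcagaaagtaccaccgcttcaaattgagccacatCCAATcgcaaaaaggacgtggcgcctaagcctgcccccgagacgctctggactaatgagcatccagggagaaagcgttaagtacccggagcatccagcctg
Tuba8 (chr6:121210484-121210783, plus strand): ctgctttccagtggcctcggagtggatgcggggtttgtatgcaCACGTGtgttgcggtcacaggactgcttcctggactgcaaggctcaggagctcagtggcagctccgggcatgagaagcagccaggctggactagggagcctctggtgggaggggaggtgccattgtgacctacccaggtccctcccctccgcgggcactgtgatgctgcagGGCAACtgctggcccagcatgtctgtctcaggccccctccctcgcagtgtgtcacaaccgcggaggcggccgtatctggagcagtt
Tuba4a (chr1:75219245-75219544, minus strand): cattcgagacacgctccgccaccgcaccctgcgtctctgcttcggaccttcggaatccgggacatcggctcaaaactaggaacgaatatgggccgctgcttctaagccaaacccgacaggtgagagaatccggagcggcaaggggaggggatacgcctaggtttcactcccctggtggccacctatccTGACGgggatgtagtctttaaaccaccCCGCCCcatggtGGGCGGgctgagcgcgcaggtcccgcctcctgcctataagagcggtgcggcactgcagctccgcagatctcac

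The *Tuba3a* and *Tuba3b* promoters resembled each other. They were identical in 60.9% of the 335 columns of a global alignment, against 40.7% to 50.6% for the other 35 pairs of tubulin promoters. They shared an unbroken run of 33 bases, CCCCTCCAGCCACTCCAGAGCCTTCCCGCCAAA, which began 142 bases before the start site of *Tuba3a* and 129 bases before that of *Tuba3b*. The longest run in any other pair was 11 bases. Downstream of the shared run each promoter had a pair of CCAAT boxes whose first bases lay 38 bases apart, and *Tuba3a* had a further CCAAT box nearer its start site. A CCAAT box stood in 6 of the 9 tubulin promoters and in 37.9% of 27018 mouse promoters of the same length. No full cAMP response element or TATAAA was found in the 9 promoters, and these stood in 1.88% and 14.2% of all promoters. The core TGACG was found in *Tuba4a* and *Tuba1c*, against 21.0% of all promoters. The E-box was found in *Tuba8* and *Tubb5*, against 7.24%, and the X-box core in *Tuba8* and *Tuba1c*, against 12.7%. The GC box was found in 6 of the 9, against 35.9%. For *Tuba3a*, *Tuba4a*, *Tuba8* and *Tubb3* the start site of the promoter table lay 39, 41, 36 and 11 bases from the one in the deposited tables, and for the other 5 they were the same base.

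The comparison of RS with PS asks how the set of tubulin transcripts changes from meiosis to the haploid phase. Alpha-tubulin RNA was dominated by *Tuba3a* and *Tuba3b* at both stages, and both fell in RS, whereas *Tuba8*, *Tuba4a*, *Tuba1c* and *Tubb6* rose by between 6.72-fold and 11.4-fold. All 10 genes passed the minimum of 10 reads in 2 libraries. By edgeR's quasi-likelihood test, 6 of the 10 were higher in RS and 2 were lower at an adjusted p under 0.05 and a change of at least 1.5-fold. Over all 14647 genes tested, 30.4% were higher and 27.6% were lower by the same rule. The RPKM values of the stages did not overlap for 8 of the 10 genes, against 83.6% of all genes tested.

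**Figure D1:**
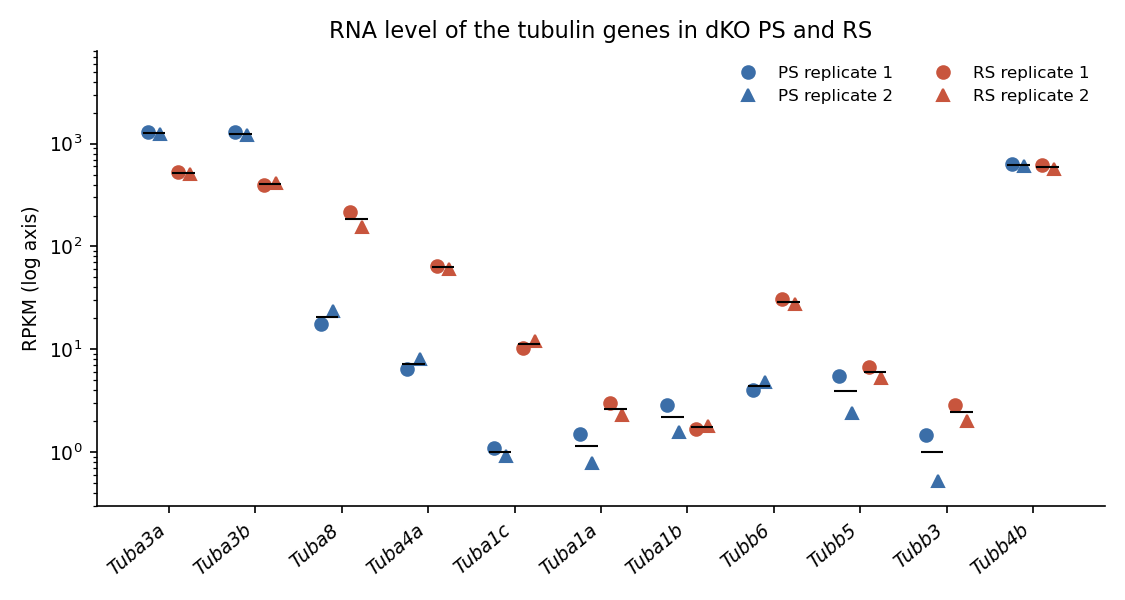
RPKM of each tubulin gene in the 4 dKO RNA libraries on a log axis, with circles for replicate 1, triangles for replicate 2 and black lines at the means of 2 replicates. *Tuba3a* and *Tuba3b* lie at 1208 RPKM or more in PS and at 532 RPKM or less in RS, *Tuba8*, *Tuba4a*, *Tuba1c* and *Tubb6* are higher in RS, and *Tubb4b*, shown for comparison, lies between 561 and 632 RPKM in all 4.

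*Tuba3a* (NM_009446, chr6:125278274-125286042, minus strand) measured 1288 and 1255 RPKM in PS and 532 and 511 RPKM in RS. It was among the 6 genes of highest RPKM of all 23343 in each PS library and ranked 73rd and 62nd in RS. Both RS libraries lay far below both PS libraries. The log2 fold change was -1.24 (SE 0.108, adjusted p = 2.31e-05), a 2.37-fold fall.

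*Tuba3b* (NM_009449, chr6:145615963-145621477, plus strand) measured 1302 and 1208 RPKM in PS and 396 and 413 RPKM in RS. In PS it overlapped *Tuba3a*, and in RS both of its values lay below those of *Tuba3a*. The log2 fold change was -1.59 (SE 0.109, adjusted p = 7.60e-06), a 3.01-fold fall.

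*Tuba8* (NM_017379, chr6:121210770-121226097, plus strand) encodes a divergent alpha isotype. It measured 17.8 and 23.8 RPKM in PS and 218 and 156 RPKM in RS. The lowest RS value was several times the highest PS value. The log2 fold change was 3.21 (SE 0.222, adjusted p = 7.79e-06), a 9.24-fold rise.

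*Tuba4a* (NM_009447, chr1:75214974-75219253, minus strand) encodes an alpha-tubulin that is made without the terminal tyrosine that most other alpha isotypes carry. It measured 6.40 and 8.11 RPKM in PS and 65.3 and 60.3 RPKM in RS. The replicates of a stage lay close together and the stages were far apart. The log2 fold change was 3.16 (SE 0.174, adjusted p = 3.79e-06), an 8.93-fold rise.

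*Tuba1a*, *Tuba1b* and *Tuba1c* stand in a cluster on chromosome 15 and encode the general alpha-tubulins of dividing and neural cells. *Tuba1c* (chr15:99029891-99038105, plus strand) rested on 25 and 20 reads in PS and 287 and 281 in RS. These were 1.11 and 0.911 RPKM in PS and 10.4 and 12.1 RPKM in RS. Its log2 fold change of 3.51 (SE 0.241, adjusted p = 7.68e-06) was the largest of the 10. *Tuba1a* (chr15:98949847-98953501, minus strand) held 27 and 14 reads in PS and 67 and 43 in RS, or 1.49, 0.792, 3.01 and 2.29 RPKM. The stages did not overlap, and the log2 fold change was 1.26 (SE 0.377, adjusted p = 0.0175). *Tuba1b* (chr15:98931431-98934390, minus strand) held 51 and 27 reads in PS and 37 and 33 in RS, or 2.86, 1.56, 1.69 and 1.79 RPKM. Its stages overlapped and it did not pass the test (log2 fold change -0.30, SE 0.360, adjusted p = 0.485). The call of *Tuba1a* was lost without RS replicate 1 (adjusted p = 0.130) and with DESeq2 (adjusted p = 0.0508).

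The 3 beta-tubulin genes were low in PS. *Tubb6*, a minor beta isotype on chromosome 18, measured 4.03 and 4.85 RPKM in PS and 30.7 and 27.4 RPKM in RS. Its replicates lay close together, and the log2 fold change was 2.75 (SE 0.192, adjusted p = 8.07e-06), a 6.72-fold rise. *Tubb5* (chr17:35833920-35838301, minus strand), a beta isotype found in most tissues, measured 5.51 and 2.38 RPKM in PS and 6.73 and 5.26 RPKM in RS. The stages overlapped, since PS replicate 1 lay above RS replicate 2, and the gene did not pass the test (log2 fold change 0.65, SE 0.341, adjusted p = 0.123). Without PS replicate 1 it passed, with a log2 fold change of 1.33 (adjusted p = 0.000591). *Tubb3* (chr8:123411564-123422010, plus strand), the neuronal beta isotype, held 29 and 10 reads in PS and 70 and 41 in RS, or 1.48, 0.522, 2.90 and 2.02 RPKM. It was called higher in RS (log2 fold change 1.34, SE 0.457, adjusted p = 0.0297), and the call was lost without PS replicate 2 (adjusted p = 0.0632) or without RS replicate 1 (adjusted p = 0.165). The summed level of macrophage and blood markers, given above, was also higher in RS, and its part in these low levels was not tested.

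By mean RPKM, the 4 genes of highest level kept their order between the stages. In PS, *Tuba3a* and *Tuba3b* overlapped and were followed by *Tuba8* and *Tuba4a*, each apart from its neighbours. *Tubb6*, *Tubb5* and *Tuba1b* came next, in overlap from each to the next, and *Tuba1a*, *Tuba1c* and *Tubb3* were lowest and overlapped too. In RS the order was *Tuba3a*, *Tuba3b*, *Tuba8*, *Tuba4a*, *Tubb6*, *Tuba1c* and *Tubb5*, with no overlap between neighbours. *Tuba1a* and *Tubb3* overlapped below them and *Tuba1b* was last, at 1.69 and 1.79 RPKM. With 2 replicates these are statements about ranges, not tests.

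Summed over the 7 alpha genes, the level was 2619 and 2498 RPKM in PS and 1227 and 1157 RPKM in RS. *Tuba3a* and *Tuba3b* made up 98.9% and 98.6% of it in PS and 75.7% and 79.9% in RS. *Tuba4a* and *Tuba8* together made up 0.923% and 1.28% in PS and 23.1% and 18.7% in RS. The 3 *Tuba1* genes stayed at or below 1.40% in every library. RPKM is relative to the reads of a library, so these are shares of the measured alpha-tubulin RNA and not amounts per cell.

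The main beta-tubulin transcript was *Tubb4b*, a testis-rich beta isotype that is not among the 10 genes. It measured 632, 612, 615 and 561 RPKM in the libraries in the same order, and did not pass the test (log2 fold change -0.04, SE 0.112, adjusted p = 0.772). It made up 98.1% and 98.5% of the RPKM of 8 beta-tubulin genes in PS and 92.9% and 93.1% in RS. *Tubb6* rose from 0.625% and 0.781% of that sum to 4.63% and 4.54%. The summed beta level was 644 and 621 RPKM in PS and 663 and 603 RPKM in RS, so that it overlapped between the stages while the alpha sum did not.

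**Figure D2:**
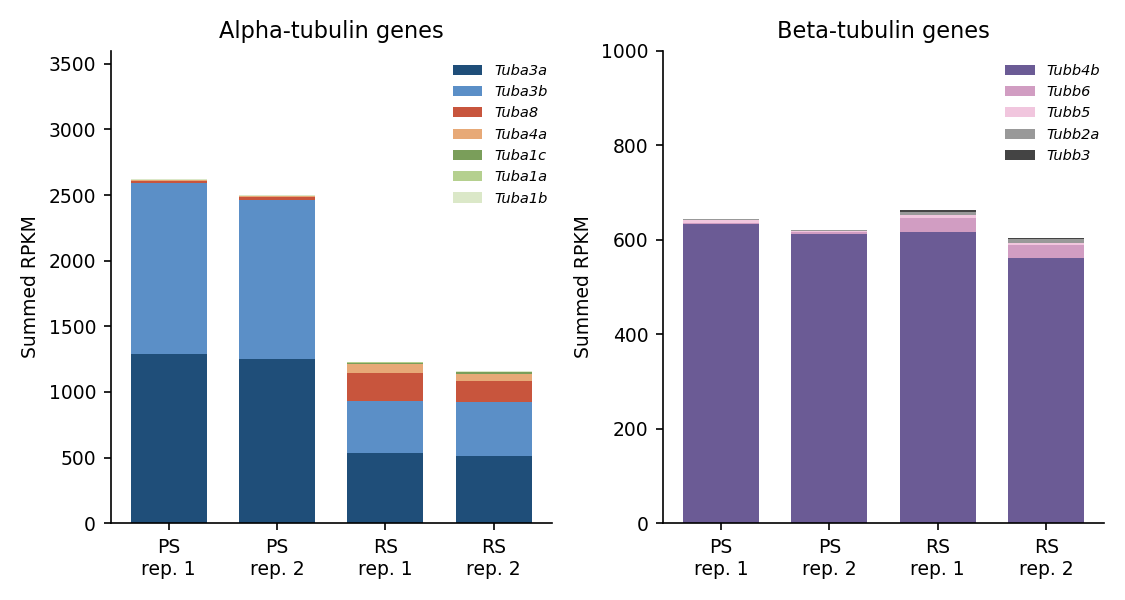
Summed RPKM of the 7 alpha-tubulin genes (left) and of the beta-tubulin genes (right) in each dKO RNA library, stacked by gene, on separate axes that start at 0. The alpha sum is 2498 to 2619 RPKM in PS and 1157 to 1227 RPKM in RS, with a larger part from *Tuba8* and *Tuba4a* in RS, and the beta sum is mostly *Tubb4b* in all 4 libraries.

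The levels of some of these genes are uncertain because the family has near-identical copies and the authors kept only reads that aligned to 1 place. Of the windows of 50 bases in the *Tuba1b* transcript, 89.4% occurred again elsewhere in the genome, as did 72.1% for *Tuba1a* and 60.7% for *Tuba1c*. All 3 were low in the tables, and a read of exactly such a window would have had more than 1 place to align. For *Tuba3a* and *Tuba3b* the share was 31.9% and 32.9%, most of it shared between the pair. It was 57.8% for *Tubb4b*, 12.4% for *Tubb3*, 1.51% for *Tuba4a*, 1.39% for *Tubb5*, 0.282% for *Tuba8* and 0 windows for *Tubb6*. The read length is not given in the sources used here, so the share of reads lost in this way is not known.

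H3K27ac at the tubulin promoters was compared next. The value of a gene was the fold enrichment over background of the highest deposited interval that overlapped the 2 kb on either side of its start site. No other gene of the tables started within 2 kb of any of the 10. An interval stood at the start site in both PS replicates for all 10 genes and in both RS replicates for 9 of them, against 55.5% and 50.8% of the 23343 genes. The exception was *Tubb3*, with intervals of 4.53-fold and 6.58-fold enrichment in PS and none listed in either RS library. When only intervals with a −log10 q of at least 5 were kept, the count was 8 genes in PS and 8 in RS. The share of all genes under that stricter limit is not given here, and the 55.5% and 50.8% are not its background. The lists held 41095 and 49434 intervals in PS and 74919 and 45863 in RS, and the lowest fold enrichment in any list lay between 2.85 and 3.48, so a missing interval is a value under the limit of that list.

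The strongest tubulin promoters in PS were those of *Tuba3a* and *Tuba3b*, and both lost most of their enrichment in RS. *Tuba8* showed the reverse, and *Tuba4a* moved with it to a smaller extent. Of the 9 genes with an interval in all 4 samples, 3 were higher and 3 were lower in RS by limma on log2 fold enrichment, with each sample centred on its median. Over the 11394 genes tested, 22.8% were higher and 20.8% were lower. The raw values of the stages did not overlap for 7 of the 9 genes, against 72.3% of all genes tested. Without centring, the median gene was 0.42 lower in RS on the log2 scale, and the fold changes given here are relative to that shift. The share of calls that were higher in RS was 52.4% with centring and 19.7% without.

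*Tuba3a* showed fold enrichments of 42.0 and 47.1 in PS and 12.2 and 9.29 in RS. The PS values were above the RS values by a wide margin. The log2 fold change was -1.64 (SE 0.143, limma adjusted p = 7.15e-11). *Tuba3b* showed 48.6 and 53.2 in PS and 15.5 and 14.5 in RS, again with no overlap. Its log2 fold change was -1.34 (SE 0.142, limma adjusted p = 2.07e-09). The intervals themselves stayed in place, and that of *Tuba3b* was 1659 and 1637 bases long in PS and 2150 and 1613 bases long in RS.

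*Tuba8* showed fold enrichments of 6.17 and 7.13 in PS and 20.3 and 12.8 in RS. Both RS values lay above both PS values, and the log2 fold change was 1.70 (SE 0.203, limma adjusted p = 1.85e-08). Its highest interval was 1365 and 679 bases long in PS and 3683 and 2877 bases long in RS. In PS replicate 1 further intervals lay at -1204 to -1015 and 1064 to 1241 bases from the start site. In PS replicate 2 they lay at 124 to 639 and 732 to 976 bases. Both RS libraries also had short intervals beside the highest one. The lengths therefore depend in part on how the signal was split into intervals. *Tuba4a* showed 7.0 and 7.13 in PS and 11.8 and 8.13 in RS, with a log2 fold change of 0.89 (SE 0.224, limma adjusted p = 0.00132). Without centring *Tuba8* was still called (log2 fold change 1.28, limma adjusted p = 0.000267) and *Tuba4a* was not (0.47, limma adjusted p = 0.203).

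*Tuba1c* showed 7.41 and 9.87 in PS and 13.4 and 6.97 in RS, so that the stages overlapped. It was called higher in RS after centring (log2 fold change 0.60, SE 0.226, limma adjusted p = 0.0304), and the call was lost without centring (limma adjusted p = 0.662), with quantile normalization (0.0922), and without PS replicate 1 (0.260), PS replicate 2 (0.0813) or RS replicate 1 (0.360). *Tuba1b* showed 16.1 and 18.6 in PS and 8.54 and 6.97 in RS. It was called lower (log2 fold change -0.74, SE 0.190, limma adjusted p = 0.00168), and missed the threshold without PS replicate 2 (0.0519). *Tuba1a* showed 5.35 and 9.32 in PS and 4.48 and 3.48 in RS and did not pass (log2 fold change -0.42, SE 0.287, limma adjusted p = 0.245), although it passed without centring (0.00871). GENCODE places the start of another transcript, *Gm49450* or *Gm41396*, inside the intervals of *Tuba1a* and *Tuba1b*, so that the mark there belongs to more than 1 annotated start.

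*Tubb5* showed 7.41 and 9.32 in PS and 5.70 and 5.81 in RS, and did not pass after centring (log2 fold change -0.11, SE 0.25, limma adjusted p = 0.752). *Tubb6* showed 6.17 and 4.93 in PS and 6.10 and 6.39 in RS at its start site, in overlap (log2 fold change 0.60, SE 0.273, limma adjusted p = 0.0736). It passed without RS replicate 1 (0.0248). *Tubb4b* showed 31.7, 31.2, 28.1 and 22.1, with a log2 fold change of 0.08 (SE 0.138, limma adjusted p = 0.653).

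**Figure D3:**
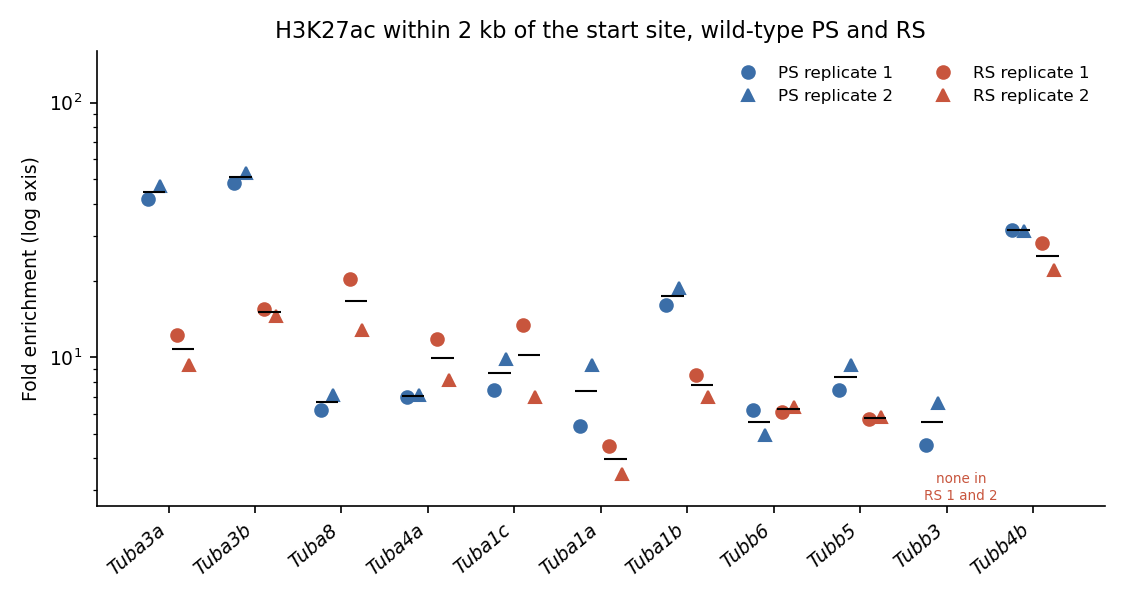
H3K27ac fold enrichment of the highest interval within 2 kb of the start site in the 4 wild-type samples, on a log axis, with circles for replicate 1, triangles for replicate 2 and black lines at the means. *Tuba3a* and *Tuba3b* fall from 42.0 or more to 15.5 or less, *Tuba8* rises from 6.17 and 7.13 to 20.3 and 12.8, and *Tubb3* has no interval in RS.

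Set side by side, RNA and start-site H3K27ac were called in the same direction for 5 of the 9 genes tested in both, against 22.9% of the 10773 genes tested in both. Without centring of the H3K27ac values it was 3 of the 9, against 22.0%, since the calls of *Tuba4a* and *Tuba1c* were lost. *Tuba8*, *Tuba4a* and *Tuba1c* were higher in both and *Tuba3a* and *Tuba3b* were lower in both. With centring, *Tubb6* and *Tuba1a* were called in RNA alone, *Tuba1b* in H3K27ac alone, and *Tubb5* in neither. Without centring, *Tuba1a* was called lower in H3K27ac (log2 fold change -0.84, limma adjusted p = 0.00871), the opposite direction to its RNA. *Tubb3*, whose RNA was called higher in RS on few reads, had its intervals in PS only. The sizes differed, since the 9.24-fold and 8.93-fold rises in *Tuba8* and *Tuba4a* RNA stood beside rises of 3.26-fold and 1.86-fold in H3K27ac.

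**Figure D4:**
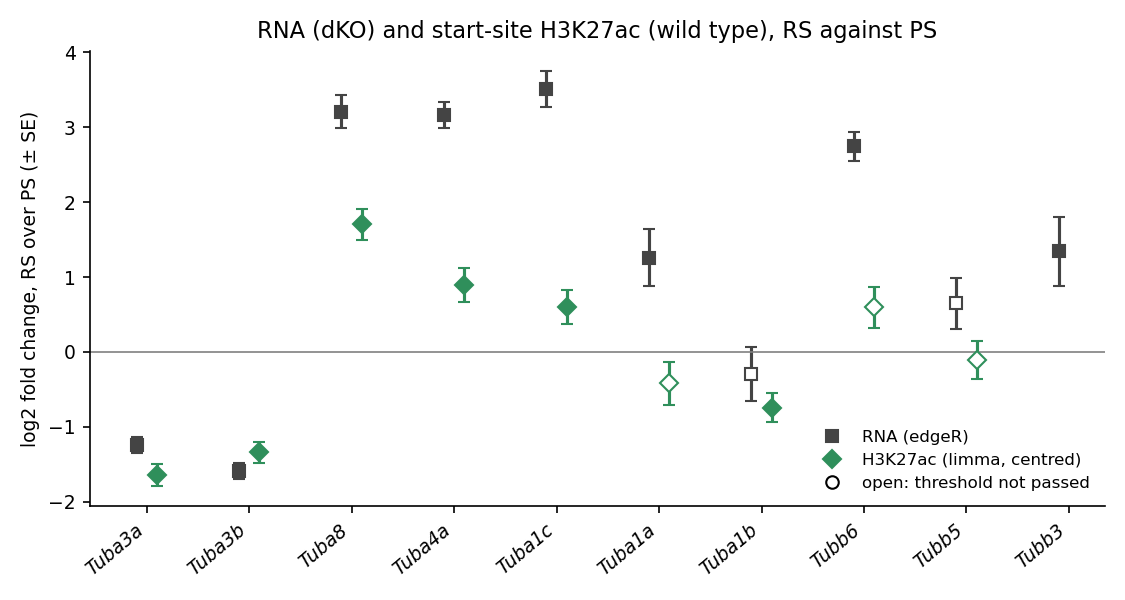
Log2 fold change of RS over PS with its standard error for RNA in the dKO (grey squares, edgeR) and for start-site H3K27ac in wild type (green diamonds, limma after centring), with open symbols where the threshold was not passed and no diamond where a gene was not tested. *Tuba3a* and *Tuba3b* lie below 0 for both measures, and *Tuba8*, *Tuba4a* and *Tuba1c* lie above 0 for both.

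*Tubb6* was the 1 gene of the 10 whose highest interval within the gene lay outside the start-site window. To measure such intervals, overlapping intervals of the 4 samples were merged into regions, a step chosen after these values were seen. The 10 genes had 65 merged regions, which include those that the deposited lists assign to a tubulin gene at a distance, and 15 of them held an interval in all 4 samples. Of these 15, 5 were higher and 5 were lower in RS by limma on the same scale, against 31.0% higher and 32.7% lower of 16460 regions. The median region was 0.21 lower in RS on the log2 scale before centring.

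The region in *Tubb6* ran from 9109 to 13263 bases after the start site and covered the whole last exon, 1440 bases long, with the intron before it and the bases after the gene. Its fold enrichment was 8.23 and 12.6 in PS and 26.9 and 22.1 in RS, with both RS values above both PS values. The log2 fold change was 1.39 (SE 0.176, limma adjusted p = 1.45e-08), a 2.63-fold rise, beside the 6.72-fold rise in its RNA. No GENCODE transcript started within that region. A weaker region upstream of *Tubb6*, at -18998 to -17741 bases from the start site, measured 5.35 and 3.29 in PS and 7.73 and 6.39 in RS (log2 fold change 0.88, SE 0.266, limma adjusted p = 0.00397).

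The gene body of *Tuba3b* held a second region, from 3490 to 5071 bases after the start site, with weak values of 4.12, 3.84, 6.10 and 4.06 that did not pass the test (log2 fold change 0.46, SE 0.268, limma adjusted p = 0.130). A pair of regions that the lists assign to *Tuba4a* together with *Dnajb2* and *A630095N17Rik* lay upstream of its start site. The nearer one, at -14366 to -11115 bases, measured 5.76 and 7.13 in PS and 15.1 and 13.9 in RS (log2 fold change 1.31, SE 0.208, limma adjusted p = 9.33e-07). The farther one, which holds the start sites of *Dnajb2*, measured 30.0 and 39.5 in PS and 23.2 and 23.2 in RS (log2 fold change -0.43, SE 0.144, limma adjusted p = 0.00841). In the region test, which has its own centring, *Tuba1a* was lower in RS (log2 fold change -0.70, limma adjusted p = 0.0202) and *Tuba1c* was not called (0.31, limma adjusted p = 0.218). A region assigned to *Tuba1c* at -37124 to -35954 bases measured 7.0 and 7.13 in PS and 4.88 and 4.64 in RS. It did not pass (log2 fold change -0.43, SE 0.248, limma adjusted p = 0.127). Of the 14 regions of *Tuba1c*, 8 and 10 were listed in PS and 4 and 2 in RS. For all 10 genes these counts were 26 and 38 in PS and 41 and 18 in RS.

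**Figure D5:**
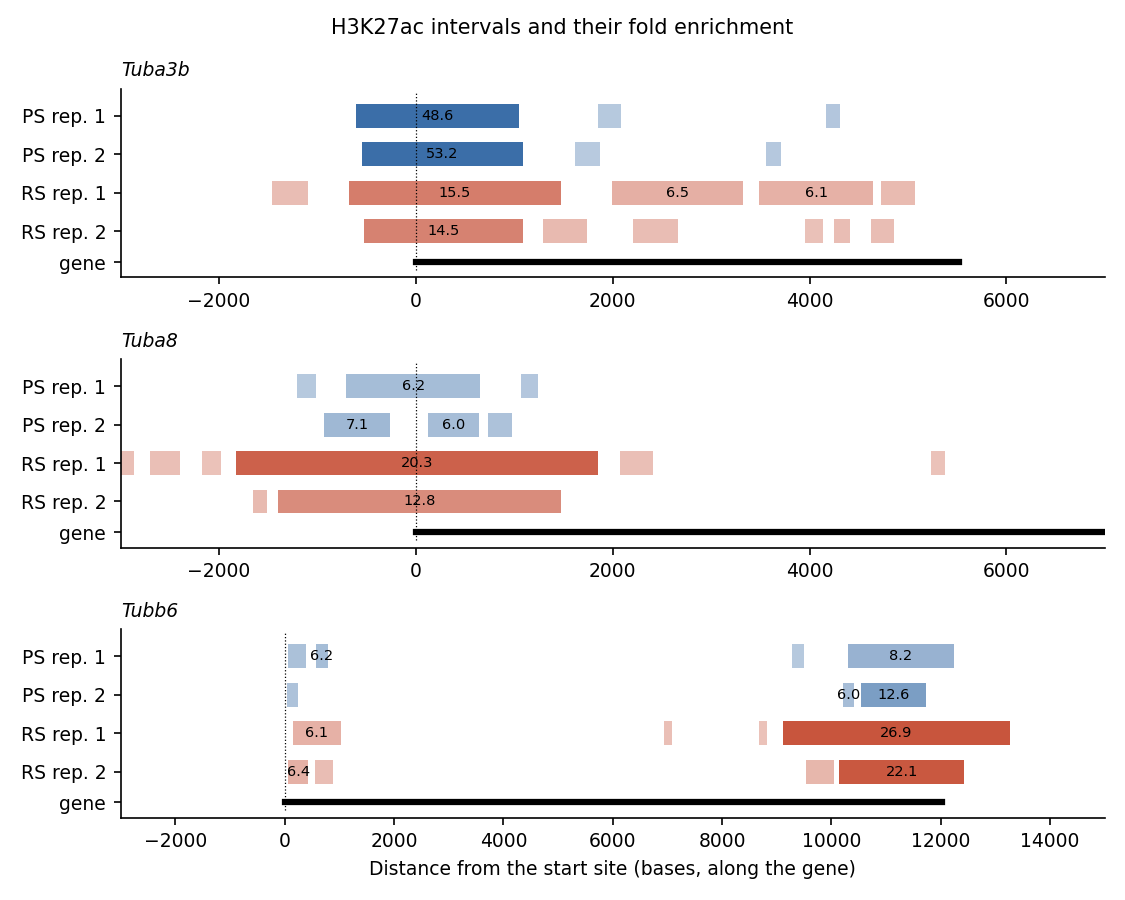
Deposited H3K27ac intervals around *Tuba3b*, *Tuba8* and *Tubb6* in the 4 wild-type samples, by distance in bases from the start site along the gene, with the gene as a black bar, darker colour for higher fold enrichment and the value printed where it is at least 6. The *Tuba3b* promoter interval falls from 48.6 and 53.2 to 15.5 and 14.5. The *Tuba8* promoter signal, split into shorter intervals in PS, rises to 20.3 and 12.8. The *Tubb6* interval over the last exon rises from 8.23 and 12.6 to 26.9 and 22.1.

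Genes that act on tubulin were then described by function, from lists set out by role. The share of all genes called, 30.4% higher and 27.6% lower in RS, is the background for each list. Tubulin is folded by the CCT chaperonin, to which prefoldin hands the nascent chain. Of 14 such genes tested, 4 were lower in RS, a share close to that of all genes, and 1 was higher. The median log2 fold change was -0.47, against 0.01 for all genes. The prefoldin subunit *Pfdn4* fell from 26.3 and 19.8 RPKM to 4.52 and 5.04 RPKM, and *Pfdn2* from 41.8 and 38.9 RPKM to 9.88 and 10.6 RPKM. The chaperonin subunit *Cct8* fell from 143 and 117 RPKM to 57.7 and 60.9 RPKM. *Vbp1*, an X-linked prefoldin subunit, rose from 1.86 and 1.18 RPKM to 3.12 and 3.29 RPKM.

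The cofactors that join folded alpha-tubulin and beta-tubulin into dimers gave 2 of 7 higher and 2 of 7 lower, close to the shares of all genes, and a median of -0.09. *Tbcb* and *Tbce* both act on alpha-tubulin. *Tbcb* fell from 56.2 and 62.9 RPKM to 20.9 and 22.7 RPKM, while *Tbce* rose from 3.59 and 4.47 RPKM to 11.7 and 12.2 RPKM. *Tbcel*, a relative of *Tbce*, fell from 28.1 and 24.3 RPKM to 10.0 and 9.86 RPKM. *Arl2*, a small GTPase that works with the cofactors, rose from 7.37 and 7.36 RPKM to 18.1 and 15.5 RPKM.

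Of 29 enzymes that modify tubulin, 15 were higher and 4 were lower in RS, where the shares of all genes would give fewer higher and more lower. Their median log2 fold change was 0.62, against 0.01 for all genes. *Ttll8* and *Ttll10* belong to the enzymes that add glycine chains, a modification found on axonemes. *Ttll8* rose from 4.16 and 8.53 RPKM to 57.9 and 63.6 RPKM, and *Ttll10* from 14.0 and 19 RPKM to 150 and 132 RPKM. *Ttll2*, also among the 29 enzymes, rose from 0.487 and 0.777 RPKM to 6.25 and 4.92 RPKM. *Vash2*, which removes the terminal tyrosine of alpha-tubulin, rose from 5.57 and 7.30 RPKM to 54.6 and 50.3 RPKM.

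Of 7 other tubulin genes tested, 3 were higher and 1 was lower, with a median of 0.10. *Tubb2a*, a further beta isotype, rose from 1.04 and 1.35 RPKM to 6.64 and 6.88 RPKM, and *Tube1*, the epsilon-tubulin of centrioles, fell from 2.61 and 3.72 RPKM to 1.27 and 1.65 RPKM. Of 16 genes of the gamma-tubulin ring and augmin complexes, 3 were lower and 1 was higher, both below the shares of all genes, with a median of -0.26. *Tubgcp5* fell from 5.79 and 4.65 RPKM to 2.14 and 1.73 RPKM, *Haus6* from 13.3 and 8.82 RPKM to 4.7 and 5.35 RPKM, and *Tubgcp6* from 3.16 and 3.01 RPKM to 1.23 and 1.72 RPKM. *Haus7*, an X-linked augmin subunit, rose from 2.44 and 2.57 RPKM to 4.87 and 3.86 RPKM.

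Of 8 severing and destabilizing genes tested, 2 were lower in RS and the other 6 did not pass the test, with a median of -0.14. *Fignl1*, a fidgetin-like ATPase also known for a role in recombination, fell from 53.3 and 39.8 RPKM to 8.08 and 8.48 RPKM. *Stmn1*, which binds free tubulin dimers, fell from 94.1 and 85.3 RPKM to 25.7 and 24.2 RPKM. Of 24 genes for microtubule-binding proteins, 9 were higher and 5 were lower, near the shares of all genes, with a median of 0.30. *Map2* rose from 1.23 and 1.34 RPKM to 12 and 9.77 RPKM, *Map6* from 0.824 and 0.703 RPKM to 3.12 and 2.88 RPKM, and *Eml2* from 1.09 and 1.16 RPKM to 4.09 and 4.67 RPKM. *Clip1*, which tracks growing ends, rose from 14.6 and 18.7 RPKM to 75.9 and 66.9 RPKM.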

How the data were processed

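RNA was measured in *Rnf8;Scml2*-dKO germ cells and H3K27ac, by ChIPmentation, in wild-type germ cells, with 2 samples of each stage. Germ cells were separated by gravity sedimentation, and for the dKO, at a small scale, both stages were purified from the testes of 1 mouse; which PS and RS samples came from the same mouse is not given in the sources used here. The authors aligned RNA reads with STAR, kept unique alignments and assigned them to RefSeq transcripts on mm10 by expectation maximization. The deposited tables give estimated counts of reads per transcript, which are whole numbers, and RPKM. H3K27ac intervals were called by the authors with MACS2 after Bowtie alignment, per sample. The deposited lists give the pileup signal, the fold enrichment and −log10 p and q values. The submitters' processing notes name STAR 2.4.2a, Bowtie 1.1.1 and MACS2 2.1.0.20140616.

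Rows were summed per gene. Counts were tested with edgeR (TMM scaling, at least 10 counts in 2 samples, Benjamini-Hochberg adjusted p under 0.05 and at least 1.5-fold), and standard errors are the log2 fold change over the root of F. H3K27ac was tested with limma on log2 fold enrichment with a trend, for genes with an interval in all 4 samples, each sample centred on its median. Both fits were tested on simulated data. A single value compared 2 against 2 cannot go below p = 0.333 by exact permutation, so tests come from fits across all genes. The p-values measure the spread between 2 samples of a stage, which the authors describe as biological replicates. ChIP read depth was not given in the files used here. The alternatives are other scalings, DESeq2, other filters and windows, a replicate block and leaving out each sample. All 10 genes are given in every sample, and of each pathway list up to 4 genes past the threshold with the largest change and a mean of at least 1 RPKM. The genes and lists were chosen with earlier results of these data known. *Svbp*, *Pfdn6* and *Adgre1* were not found under these symbols, nor were the older names *Tubb2c* and *Tubb4*.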

Additional observations from a re-analysis of the deposited data

How the results depend on the processing

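The replicate number was not shown to pair the samples. Across genes, the difference between replicates 1 and 2 in PS correlated with that in RS with r = 0.225 in RNA and r = 0.00972 in H3K27ac, with 2 pairs only. With a replicate block, 8723 genes were called in RNA against 8497, with 7 tubulin genes higher and 2 lower, and *Tubb5* passed (log2 fold change 0.71, adjusted p = 0.0167). At start sites the block gave 4969 calls against 4970, with 3 tubulin genes higher and 3 lower, and it changed no other call of the 10 genes. Leaving out each sample in turn gave 6039 to 8654 genes in RNA and 3176 to 4681 at start sites, with the lowest counts without PS replicate 2 (3176) and PS replicate 1 (3253). It gave 4 to 7 tubulin genes higher and 2 lower in RNA, 2 to 3 higher and 2 to 3 lower at start sites, and 4 to 6 regions higher and 3 to 5 lower. Where a stage is left with 1 sample, that sample is assumed to vary like the other stage. Without centring, 1 tubulin gene was higher at start sites, and with quantile normalization 3 regions were higher. Directions that turned belonged to results that had not passed. With each sample left out in turn, the log2 fold change ranged from -0.63 to 0.16 for *Tuba1b* RNA, above 0 without PS replicate 1, and from -0.33 to 0.11 for *Tubb5* H3K27ac, above 0 without PS replicate 2 or RS replicate 1. The cause was not tested. Of the alternatives for the single genes, 103 of 110 in RNA and 86 of 97 in H3K27ac kept the direction and the side of the threshold. Not all of these could differ much from the main result. In RNA, the 10 by adjusted p alone came from the same fit. In H3K27ac, the 9 from the pileup signal and the 9 from the 1 kb window gave nearly the same log2 fold changes.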
